A study of Mus musculus with 12 samples.

Results

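The genes of the interferon receptors, of the kinases bound to them and of 2 inhibitors of those kinases were followed in B16F10 cells, a melanoma cell line of the mouse that makes pigment. The 10 genes were chosen by name, out of 55421 genes in the deposited tables: the receptor chains Ifnar1, Ifnar2, Ifngr1, Ifngr2 and Il10rb, the Janus kinases Jak1, Jak2 and Tyk2, and the suppressors of cytokine signalling Socs1 and Socs3. A gene was tested if 3 or more libraries held a normalized count of 10 or more, which 9 of them did and Socs1 did not. The 4 groups of cells compared had 3 RNA-seq libraries each. They were Bub1KO cells given 8 Gy of radiation, vector control (VC) cells given 8 Gy, Bub1KO cells left untreated, and VC cells left untreated. Bub1KO cells carry a CRISPR-Cas9 disruption of Bub1, a kinase of the mitotic checkpoint, and all groups are the same line in the same serum-containing medium. How many Bub1KO lines there were, and how long after irradiation RNA was taken, is not given in the sources used here. Whether the 3 libraries of a group are separate cultures is not labelled, and the p-values reflect only the variation among them, which may be technical.

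Type I interferons (the interferon alphas and interferon beta) bind a receptor made of the chains Ifnar1, which holds the kinase Tyk2, and Ifnar2, which holds Jak1. Interferon gamma, the type II interferon, binds Ifngr1, which holds Jak1, and this brings in Ifngr2, which holds Jak2. Il10rb, which holds Tyk2, is the chain shared by the receptors of interferon lambda, interleukin 10 and interleukin 22. The paired kinases phosphorylate each other and the receptor, then the STAT proteins, which move to the nucleus and switch on interferon-stimulated genes. Socs1 and Socs3 are among the genes switched on and act as brakes: both can inhibit the kinases and both carry a SOCS box, which recruits a ubiquitin ligase. In melanoma, loss of these receptors or kinases is known to make tumour cells insensitive to interferon.

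Each library held between 19380726 and 33087366 reads in genes. Bub1 itself lay between 886 and 1120 normalized counts in irradiated Bub1KO cells against 1461 to 1507 in irradiated VC cells, and between 1565 and 1834 in unirradiated Bub1KO cells against 2752 to 3185 in unirradiated VC cells, without overlap in either pair. A count over the whole gene does not read the edit. All 7 pigment cell markers listed, Mitf, Sox10, Pmel, Tyr, Tyrp1, Dct and Mlana, passed the filter, and their summed level was 555547 to 578932 normalized counts in irradiated Bub1KO, 430616 to 445913 in irradiated VC, 542890 to 552089 in unirradiated Bub1KO and 386911 to 404327 in unirradiated VC libraries. Replicate 1 of unirradiated Bub1KO stood apart in the balance of GC-rich against GC-poor genes, at -0.70 on the log2 scale where the other 11 libraries lay between -0.359 and 0.336, and calls that changed without it are given both ways. The cells' own interferon genes were near 0: of 21 ligand genes, 17 had no read in any library, the other 4 had 9 reads in all, and none was tested.

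A normalized count is the number of reads of a gene divided by 1 size factor for its library. Differences are given as log2 changes of the normalized count + 1, tested with limma over all 14721 genes that passed the filter, with Benjamini-Hochberg adjustment over these genes and a threshold of 0.05. Throughout, "higher" or "rose" of a gene means that it passed this threshold.

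The genes are spread over 6 chromosomes. Of the chains, 4 lie near each other on the plus strand of chromosome 16 (GRCm38, GENCODE M21 annotation): Ifnar2 at 91372783 to 91405589, Il10rb at 91406164 to 91425834, Ifnar1 at 91485238 to 91507441 and Ifngr2 at 91547072 to 91565623, a stretch of 193 kb. Socs1 is far away on the same chromosome, on the minus strand at 10782240 to 10785536. Ifngr1 is on chromosome 10 (19591949 to 19610229, plus strand), Jak1 on chromosome 4 (101152367 to 101265282, minus), Jak2 on chromosome 19 (29251828 to 29313080, plus), Tyk2 on chromosome 9 (21104068 to 21131243, minus) and Socs3 on chromosome 11 (117966079 to 117970047, minus).

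Promoter sequences are shown for the 3 classical chains that differed between irradiated Bub1KO and VC cells and for both brakes, because the pathway's own transcription factors bind 2 short motifs that can be read in them. The GAS motif, the site of STAT dimers, was searched as TTCNNNGAA, which reads the same on both strands, and the ISRE, the site of the complex that contains Irf9, as GAAA, any 2 bases and GAAA again, on both strands. Each window runs from 250 bases before to 50 bases after the annotated start, 5′ to 3′ on the strand of the gene, from RefSeq on GRCm38.p6. The windows are chr16:91372533-91372832 on the plus strand for Ifnar2, chr10:19591699-19591998 on the plus strand for Ifngr1, chr16:91546809-91547108 on the plus strand for Ifngr2, chr16:10785487-10785786 on the minus strand for Socs1 and chr11:117969317-117969616 on the minus strand for Socs3, and capitals mark the matches.
Ifnar2: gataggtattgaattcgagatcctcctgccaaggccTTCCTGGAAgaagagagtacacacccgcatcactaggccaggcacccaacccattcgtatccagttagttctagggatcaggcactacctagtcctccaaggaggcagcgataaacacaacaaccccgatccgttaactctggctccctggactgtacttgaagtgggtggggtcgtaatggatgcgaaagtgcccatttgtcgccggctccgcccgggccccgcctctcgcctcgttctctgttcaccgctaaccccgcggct
Ifngr1: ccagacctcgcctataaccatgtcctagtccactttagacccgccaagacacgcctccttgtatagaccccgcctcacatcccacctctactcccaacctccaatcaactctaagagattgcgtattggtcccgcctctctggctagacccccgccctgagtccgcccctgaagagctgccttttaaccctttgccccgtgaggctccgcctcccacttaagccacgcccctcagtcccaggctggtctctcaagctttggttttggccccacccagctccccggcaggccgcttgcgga
Ifngr2: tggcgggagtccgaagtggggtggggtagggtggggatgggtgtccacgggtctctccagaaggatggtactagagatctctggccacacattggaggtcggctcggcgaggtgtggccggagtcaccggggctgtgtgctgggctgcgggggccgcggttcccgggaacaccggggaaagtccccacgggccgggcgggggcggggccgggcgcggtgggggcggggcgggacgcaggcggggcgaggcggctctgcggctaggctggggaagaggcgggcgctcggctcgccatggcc
Socs1: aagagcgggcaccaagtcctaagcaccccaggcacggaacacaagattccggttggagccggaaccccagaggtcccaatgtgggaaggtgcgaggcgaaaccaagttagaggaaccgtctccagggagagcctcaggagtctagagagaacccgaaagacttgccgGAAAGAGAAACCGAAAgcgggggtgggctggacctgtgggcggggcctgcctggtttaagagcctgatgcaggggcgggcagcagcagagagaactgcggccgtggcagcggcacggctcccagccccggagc
Socs3: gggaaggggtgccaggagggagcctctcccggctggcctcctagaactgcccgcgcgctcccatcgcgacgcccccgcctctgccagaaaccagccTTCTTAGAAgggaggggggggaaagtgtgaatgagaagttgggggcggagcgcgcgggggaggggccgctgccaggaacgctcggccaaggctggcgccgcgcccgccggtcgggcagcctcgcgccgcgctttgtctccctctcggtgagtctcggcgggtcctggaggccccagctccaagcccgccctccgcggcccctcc

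The Ifnar2 window holds 1 GAS match, TTCCTGGAA, whose first base is 214 bases before the start. Socs3 holds 1 GAS match, TTCTTAGAA, beginning 154 bases before the RefSeq start. The Socs3 window lies wholly inside the GENCODE gene, which on the minus strand begins further upstream, at 117970047. Socs1 holds 2 ISRE matches, GAAAGAGAAA and GAAACCGAAA, beginning 83 and 77 bases before the start and overlapping each other in the run of capitals. The windows of Ifngr1 and Ifngr2 hold neither motif. Of the other members, Ifnar1 has a GAS match, TTCACGGAA, beginning 5 bases before the start, Jak1, Jak2 and Tyk2 have neither, and Il10rb is named only, as 9 of the 10 members matched the promoter table. Among all 32851 promoter windows in that table, from 27025 genes, 8.30% hold the GAS pattern and 3.44% the ISRE pattern. A match here is a run of letters, not a bound site.

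Levels within a library can be compared between genes only per length, so they were divided by the length of the merged exons. On this scale of normalized reads per kb the set spread over 3 tiers. Averaged over the 12 libraries, Ifngr2 (588 per kb), Jak1 (532), Il10rb (444) and Ifnar1 (368) made up the upper tier. Ifngr1 (183), Jak2 (175), Tyk2 (147) and Ifnar2 (141) made up the middle tier. The brakes were lowest, with Socs3 at 29.0 and Socs1 at 1.22 per kb. Within each receptor the RNA of 1 chain was thus the scarcer on this scale: Ifnar2 for the type I receptor and Ifngr1 for the type II receptor. The merged exons need not be the transcript expressed, and RNA-seq does not read the protein chains.

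The order at the top changed with irradiation. Ifngr2 led the irradiated cells, at a mean of 760 per kb in Bub1KO and 642 in VC, and Jak1 led the unirradiated cells, at 572 in Bub1KO and 518 in VC. In all 4 groups the first and second genes did not overlap, and in irradiated Bub1KO cells Il10rb at 552 and Jak1 at 513 per kb, next in the order, did. Ifnar2 was the eighth in irradiated VC cells, at 122 per kb, below Jak2 at 160 without overlap. In irradiated Bub1KO cells Ifnar2 was at 163 per kb and overlapped its neighbours in the order, Jak2 at 167 and Tyk2 at 162.

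**Figure D1:**
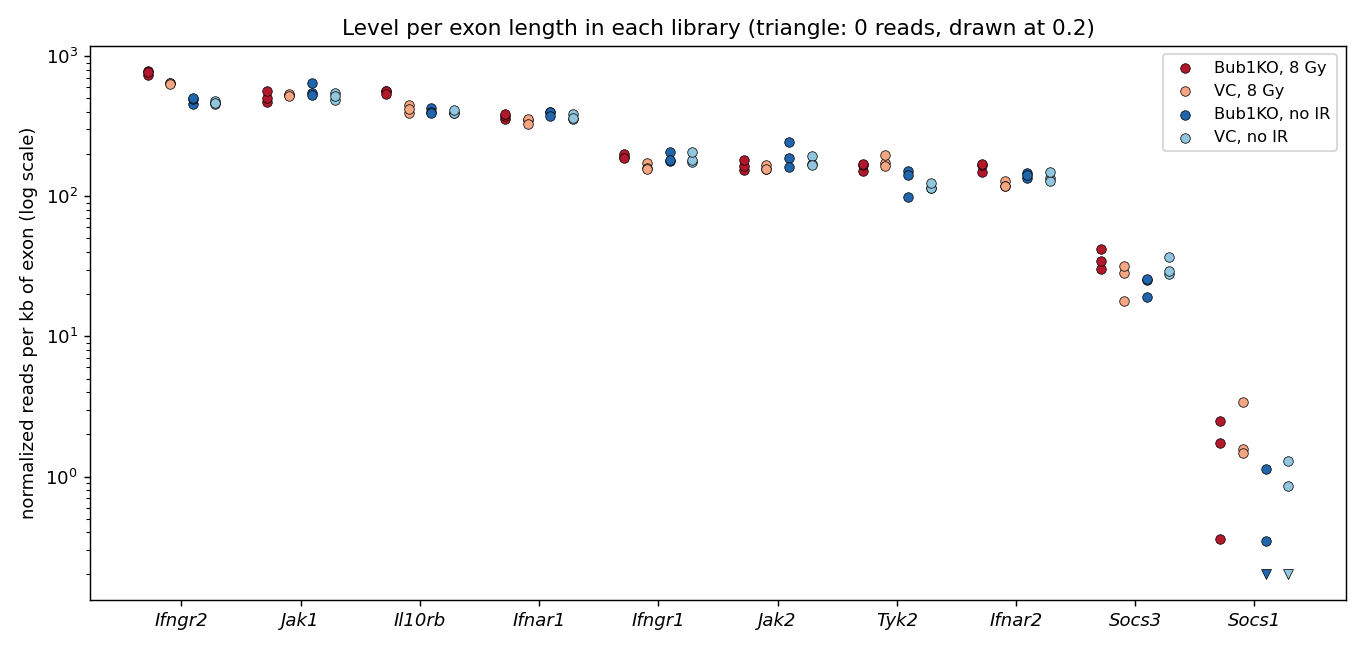
Normalized reads per kb of merged exon for each of the 10 genes, on a log axis, with 1 point per library and 3 libraries in each of the 4 groups (colours); triangles mark libraries with 0 reads. Ifngr2, Jak1, Il10rb and Ifnar1 lie above the other genes, Socs3 lies near 29.0 per kb on average and Socs1 near 1.22.

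The first question the design asks is how Bub1KO cells differ from VC cells after radiation. In irradiated cells 4 of the 9 tested genes were higher in Bub1KO than in VC and none was lower, and all 4 were receptor chains: Ifnar2, Ifngr1, Ifngr2 and Il10rb. Over all tested genes, 30.7% passed the same threshold in either direction and 14.3% were higher in Bub1KO. In 5 of the 9 genes the 3 Bub1KO libraries all lay above the 3 VC libraries, where 22.1% of all genes did so. The median log2 change was 0.24 over the 9 genes and -0.01 over all genes tested. The members were chosen with earlier results of these data known, so these counts and medians do not test the set against all genes. None of the 3 kinases passed. These are bulk libraries, in which more cells that express a gene and more RNA per cell cannot be told apart.

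Of the type I receptor, Ifnar2 passed the threshold and Ifnar1 did not. Ifnar2, the chain that binds interferon most tightly, had 498, 556 and 569 normalized counts in irradiated Bub1KO cells, against 427, 391 and 396 in irradiated VC cells. Every Bub1KO library was above every VC library, with means of 541 ± 37.7 and 405 ± 19.3 (SD, n = 3 each). The log2 change was 0.42 ± 0.08 (SE), 33.8% more by the means, with an adjusted p of 0.00229 by limma. Ifnar1, its partner, had 2118, 2229.7 and 2289 normalized counts in irradiated Bub1KO cells, against 2078, 2108 and 1961 in irradiated VC cells. These libraries did not overlap either, but the difference was small: a log2 change of 0.11 with a 95% interval from -0.02 to 0.24 and an adjusted p of 0.177 by limma.

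Both chains of the type II receptor were higher in Bub1KO. Ifngr1, the chain that binds interferon gamma, had 539.7, 569 and 536 normalized counts in irradiated Bub1KO cells, against 489.9, 456 and 445 in irradiated VC cells. Its log2 change was 0.24 ± 0.08 (SE), with no overlap between the libraries and an adjusted p of 0.0298 by limma. That call was narrow and ended in 10 of the 16 alternatives, among them edgeR (adjusted p = 0.0619) and DESeq2 (adjusted p = 0.0845). It also ended without replicate 1 or 2 of irradiated Bub1KO (adjusted p = 0.0566 and 0.113) and without replicate 2 or 3 of irradiated VC (adjusted p = 0.0742 and 0.0976). Ifngr2, the signalling chain that brings in Jak2, had 2944, 2748 and 2899 normalized counts in irradiated Bub1KO cells, against 2414, 2439.9 and 2398 in irradiated VC cells. Its log2 change was also 0.24, with an SE of 0.0551 and an adjusted p of 0.00499 by limma, and its libraries did not overlap.

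Il10rb, the shared chain, had 2131, 2131 and 2039.9 normalized counts in irradiated Bub1KO cells, against 1698, 1492 and 1601 in irradiated VC cells. The groups were well apart: the lowest Bub1KO library was above the highest VC library. The log2 change was 0.40 ± 0.06 (SE), 31.5% more by the means, with an adjusted p of 0.000524 by limma. Ifnar2, Ifngr2 and Il10rb stayed past the threshold under all 16 alternatives of this comparison. For Ifnar2 and Il10rb, exons are shared with Gm21970, an annotated gene that runs through both on the same strand. It covers 9.46% of the exonic bases of Ifnar2 and 14.9% of those of Il10rb, is listed at 0 reads in all 12 libraries, and the counting of reads on the shared bases is not described.

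**Figure D2:**
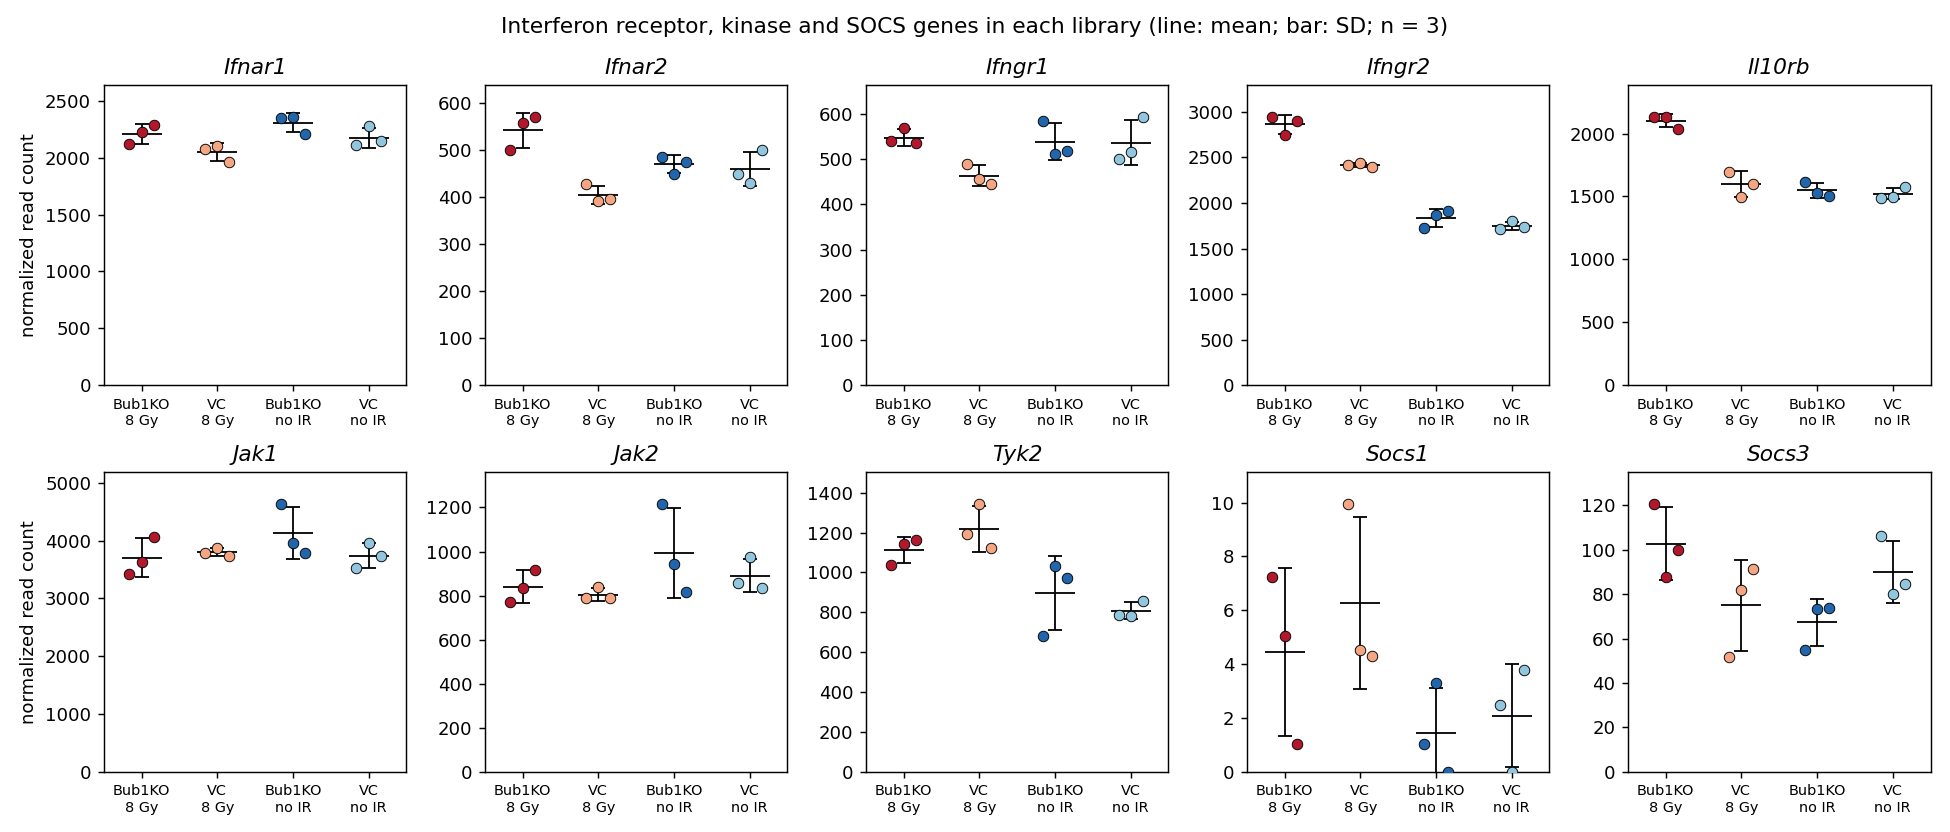
Normalized read counts of the 10 genes (1 panel each, axes from 0), with 1 point per library, a line at the mean and bars of 1 SD over 3 libraries, for irradiated Bub1KO, irradiated VC, unirradiated Bub1KO and unirradiated VC cells. Ifnar2, Ifngr1, Ifngr2 and Il10rb are higher in irradiated Bub1KO than in irradiated VC libraries with no overlap, and Jak1 and Jak2 overlap between these groups.

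The kinases overlapped between the genotypes after irradiation. Jak1, which serves both classical receptors, had 3418, 3636 and 4070.4 normalized counts in irradiated Bub1KO cells, against 3794, 3868 and 3733 in irradiated VC cells. Bub1KO held both the highest and the lowest library, and the 95% interval of the log2 change ran from -0.18 to 0.10. Jak2 had 769.8, 833 and 918 normalized counts in irradiated Bub1KO cells, against 789, 837 and 789 in irradiated VC cells. Here too the groups overlapped, with an interval from -0.11 to 0.22. Tyk2 had 1039, 1141 and 1162 normalized counts in irradiated Bub1KO cells, against 1192, 1344 and 1121 in irradiated VC cells, again overlapping, with an interval from -0.30 to 0.04.

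The brakes gave little in this comparison. Socs3 had 121, 88.0 and 99.8 normalized counts in irradiated Bub1KO cells, against 51.9, 81.7 and 91.2 in irradiated VC cells. A single VC library, replicate 1, was well below the others, and the second-lowest VC library was below every Bub1KO library while the highest VC library was not. The log2 change was 0.48 ± 0.20 (SE) with an adjusted p of 0.0884 by limma. It passed without replicate 3 of irradiated VC (log2 change 0.64, adjusted p = 0.0326) and with each library's trend with GC content removed (0.63, adjusted p = 0.0314). Socs1, a strong direct inhibitor of the kinases, had 7, 5 and 1 reads in irradiated Bub1KO libraries, against 14, 5 and 4 in irradiated VC libraries, too few for a test.

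Without irradiation none of the 9 tested genes differed between Bub1KO and VC, at a background of 4.01% of all genes. None had an unadjusted p under 0.05 either, and edgeR and DESeq2 on the recovered reads called none. The median log2 change of the 9 genes was 0.07, with -0.01 over all genes tested. Ifnar2 had 485, 448 and 475 normalized counts in unirradiated Bub1KO cells, against 449, 429.5 and 499 in unirradiated VC cells, and the groups overlapped. The 95% interval of its log2 change ran from -0.21 to 0.27. Il10rb had 1618, 1523.5 and 1502 normalized counts in unirradiated Bub1KO cells, against 1491, 1499 and 1571 in unirradiated VC cells, with an interval from -0.17 to 0.22.

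Socs3 was the only gene of the 9 whose unirradiated groups did not overlap. It had 54.9, 73.2 and 73.7 normalized counts in Bub1KO cells, against 106, 80.0 and 84.4 in VC cells. Every Bub1KO library was below every VC library, which 12.9% of all genes also showed, and the log2 change of -0.42 ± 0.19 (SE) had an adjusted p of 0.274 by limma. Tyk2 had 683, 1033 and 972 normalized counts in unirradiated Bub1KO cells, against 787, 782 and 857 in unirradiated VC cells. Replicate 1 of Bub1KO was the lowest of all 12 libraries for Tyk2 while the other Bub1KO libraries were above every VC library. Without that library Tyk2 was higher in Bub1KO, with a log2 change of 0.31 and an adjusted p of 0.0277 by limma, the only gene of the 9 called in any alternative of this comparison. The number of all genes called without it was 2736, against 591 with it.

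**Figure D3:**
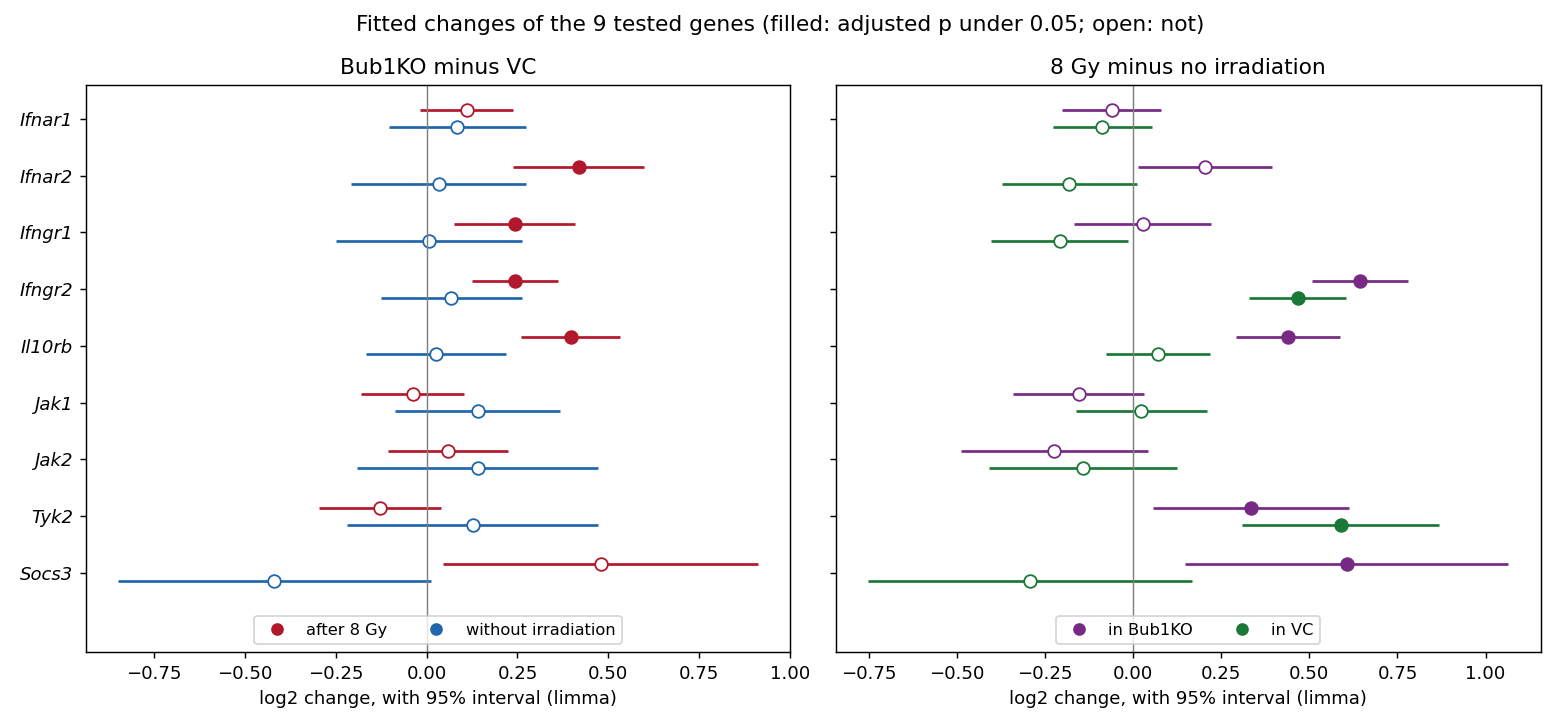
Fitted log2 changes with 95% intervals (limma) of the 9 tested genes, for Bub1KO minus VC after 8 Gy and without irradiation (left) and for 8 Gy minus no irradiation in Bub1KO and in VC (right); filled points passed an adjusted p of 0.05. After 8 Gy, Ifnar2 (0.42), Ifngr1 (0.24), Ifngr2 (0.24) and Il10rb (0.40) are filled, and without irradiation no gene is.

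The second question is what radiation did within each genotype. In Bub1KO cells 4 of the 9 genes rose with irradiation and none fell, where 49.4% of all genes passed in either direction and 25.4% rose. They were Ifngr2, Il10rb, Tyk2 and Socs3. In VC cells 2 of the 9 rose and none fell, where 53.4% of all genes passed and 27.6% rose, and these were Ifngr2 and Tyk2. With edgeR or with TMM scaling 1 member, Ifngr1, also fell there, and with GC trends removed 1, Socs3, did. Of all genes, 29.1% had irradiated Bub1KO libraries wholly above the unirradiated ones, and 5 of the 9 genes did, the fifth being Ifnar2. In VC the irradiated libraries lay wholly above for 3 of the 10 genes including the untested Socs1, where 33.6% of all tested genes did so, and wholly below for 3, Ifnar1, Ifnar2 and Ifngr1, where 31.8% of all tested genes lay wholly below. The counts of calls in either direction are thus near or under the background in both genotypes.

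Ifngr2 rose in both genotypes. Unirradiated Bub1KO cells had 1723, 1871 and 1907 normalized counts and unirradiated VC cells 1712, 1797 and 1736, all under the lowest irradiated library. The log2 change was 0.64 ± 0.06 (SE) in Bub1KO, 56.2% more by the means, with an adjusted p of 2.47e-06 by limma. In VC it was 0.47 ± 0.06 (SE), 38.3% more, with an adjusted p of 4.01e-05. Il10rb rose by 0.44 ± 0.07 (SE) in Bub1KO, with an adjusted p of 0.000127 by limma. These calls of Ifngr2 and Il10rb held in all 16 alternatives, among them without replicate 1 of unirradiated Bub1KO. In VC its irradiated and unirradiated libraries overlapped, and the log2 change of 0.07 had a 95% interval from -0.08 to 0.22.

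Ifnar2 had its irradiated libraries wholly above the unirradiated ones in Bub1KO and wholly below them in VC. The log2 change was 0.20 ± 0.09 (SE) in Bub1KO, with an adjusted p of 0.0724 by limma, and -0.18 ± 0.09 (SE) in VC, with an adjusted p of 0.102. In Bub1KO it passed the threshold with edgeR (0.23, adjusted p = 0.0411) and without replicate 1 of irradiated Bub1KO (0.26, adjusted p = 0.0449). Ifngr1 had 585, 512 and 519 normalized counts in unirradiated Bub1KO cells and 500.6, 516 and 593 in unirradiated VC cells. Its log2 change with irradiation was 0.03 in Bub1KO, with overlapping libraries, and -0.21 ± 0.09 (SE) in VC, with an adjusted p of 0.0672 by limma and no overlap. In VC Ifngr1 fell by edgeR (-0.22, adjusted p = 0.0488) and by limma with TMM scaling (-0.22, adjusted p = 0.0434). Ifnar1 moved little, by -0.06 in Bub1KO and -0.09 in VC, and passed in neither. It had 2352, 2358 and 2212 normalized counts in unirradiated Bub1KO cells and 2109, 2277 and 2145 in unirradiated VC cells.

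Among the kinases Tyk2 rose in both genotypes. In VC all 3 irradiated libraries were above the unirradiated ones, with a log2 change of 0.59 ± 0.13 (SE) and an adjusted p of 0.00175 by limma. In Bub1KO the log2 change was 0.33 ± 0.13 (SE), with an adjusted p of 0.0458. The Bub1KO call ended in 9 of the 16 alternatives, at a log2 change of 0.15 (adjusted p = 0.156) without replicate 1 of unirradiated Bub1KO, and also without replicate 1, 2 or 3 of irradiated Bub1KO (adjusted p = 0.0554, 0.113 and 0.119). Jak1 had 4638, 3966 and 3794 normalized counts in unirradiated Bub1KO cells and 3525, 3957 and 3738 in unirradiated VC cells, and Jak2 had 1217, 944 and 817 in unirradiated Bub1KO cells and 859, 975 and 835 in unirradiated VC cells. Neither kinase changed past the threshold: Jak1 gave log2 changes of -0.15 in Bub1KO and 0.02 in VC, and Jak2 gave -0.22 in Bub1KO and -0.14 in VC. Without replicate 3 of unirradiated Bub1KO, Jak2 fell in Bub1KO by 0.35 on the log2 scale (adjusted p = 0.0243 by limma).

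Socs3 rose with irradiation in Bub1KO, and this call too was narrow. Its log2 change was 0.61 ± 0.21 (SE), 52.9% more by the means, with an adjusted p of 0.0302 by limma and no overlap. The call ended in 6 of the 16 alternatives, among them without replicate 1 or 3 of irradiated Bub1KO (adjusted p = 0.122 and 0.0598) and without replicate 1 of unirradiated Bub1KO (adjusted p = 0.0868). In VC the log2 change was -0.29 ± 0.21 (SE), with an adjusted p of 0.266 and overlapping libraries. Socs1 had 1, 4 and 0 reads in unirradiated Bub1KO libraries and 3, 0 and 3 in unirradiated VC libraries. Its irradiated VC libraries were all above the unirradiated ones, its Bub1KO libraries overlapped, and neither was tested.

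Whether the response to radiation differed between the genotypes is the interaction, the irradiation effect in Bub1KO minus that in VC. None of the 9 genes passed by limma, where 0.550% of all genes did, and 3 had an unadjusted p under 0.05. For Il10rb the interaction was 0.37 ± 0.10 (SE), with an unadjusted p of 0.00192 and an adjusted p of 0.125. For Ifnar2 it was 0.38 ± 0.13 (SE), with an unadjusted p of 0.00874 and an adjusted p of 0.224. Socs3 gave 0.90 ± 0.30 (SE), with an unadjusted p of 0.0104 and an adjusted p of 0.241. EdgeR called none of the 9 and DESeq2 called Il10rb (0.37, adjusted p = 0.0337), as did limma with GC trends removed (0.34, adjusted p = 0.0368). Without replicate 1 of unirradiated Bub1KO, Il10rb (0.40, adjusted p = 0.00945) and Tyk2 (-0.44, adjusted p = 0.0236) passed by limma.

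The balance between the chains of a receptor was taken as the log2 ratio of their normalized counts in each library, in which the library's scaling cancels. For the type I receptor the ratio of Ifnar1 to Ifnar2 was 2.09, 2.00 and 2.01 in irradiated Bub1KO libraries, against 2.28, 2.43 and 2.31 in irradiated VC libraries. The irradiated Bub1KO ratios were the lowest of all 12 libraries, so Ifnar2 was there less far below Ifnar1. The difference was -0.31, with an exact two-sided permutation p of 0.1, the smallest that 3 against 3 libraries allow, and 0.2 after adjustment over 8 tests. Without irradiation the mean ratios were 2.30 ± 0.09 in Bub1KO and 2.25 ± 0.15 in VC (SD, n = 3 each), and the groups overlapped.

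For the type II receptor the ratio of Ifngr1 to Ifngr2 separated the libraries by irradiation, and the genotypes overlapped in both states. It averaged -2.39 ± 0.10 in irradiated Bub1KO, -2.38 ± 0.07 in irradiated VC, -1.77 ± 0.18 in unirradiated Bub1KO and -1.71 ± 0.14 in unirradiated VC cells (SD, n = 3 each). The irradiated libraries were below the unirradiated ones without overlap in both genotypes, by -0.62 in Bub1KO and -0.68 in VC, each with an exact two-sided permutation p of 0.1. Between irradiated Bub1KO and irradiated VC the groups overlapped, with a difference of -0.00123 and an exact permutation p of 1.

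**Figure D4:**
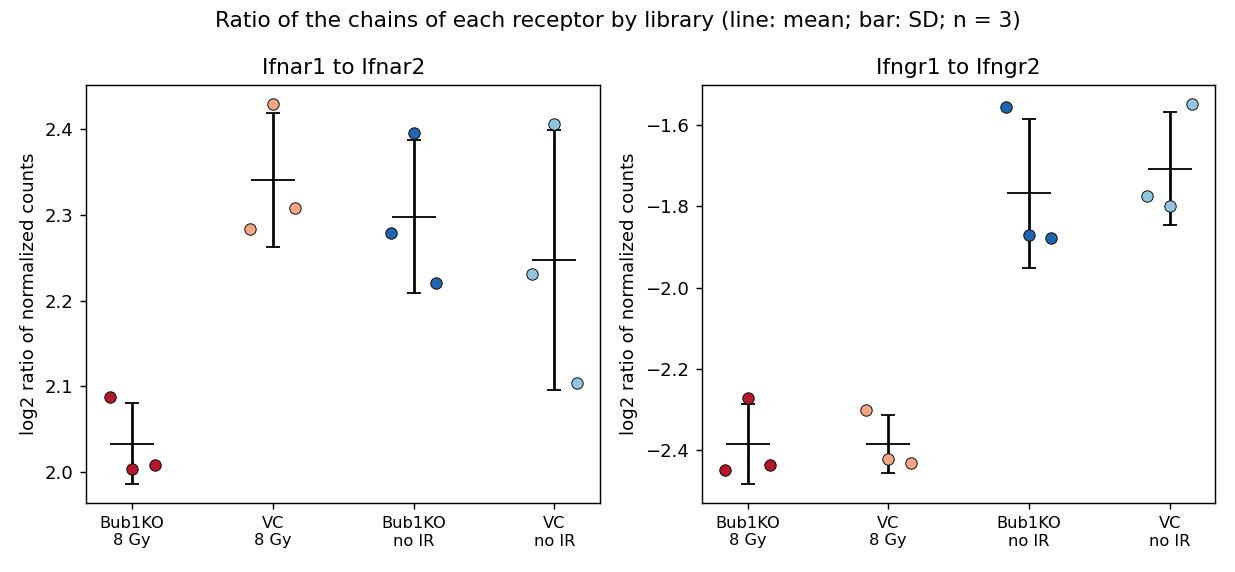
Log2 ratio of normalized counts of Ifnar1 to Ifnar2 (left) and of Ifngr1 to Ifngr2 (right) in each library (points), with the mean (line) and SD (bar) of 3 libraries per group; the axes do not start at 0. On the left the irradiated Bub1KO libraries (2.00 to 2.09) lie under all others, and on the right both irradiated groups lie under both unirradiated groups.

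The GC balance of the libraries moved with several of these genes. The GC balance of a library is the median log2 deviation of genes above the upper quartile of transcript GC content (54.1%) minus that of genes below the lower quartile (44.8%). It was 0.0763 to 0.279 in irradiated Bub1KO libraries, 0.161 to 0.336 in irradiated VC libraries and -0.359 to -0.128 in unirradiated VC libraries. In unirradiated Bub1KO it was -0.70 in replicate 1 and 0.0296 and 0.0731 in the others. The measure comes from the same counts, and in VC it did not overlap between irradiated and unirradiated libraries. A technical difference and an effect of irradiation cannot be told apart there. The GC content of the longest transcript is 57.0% for Tyk2, 58.8% for Socs1 and 58.7% for Socs3, and 44.3% for Jak2, against a median of 49.4% over tested genes. The 5 receptor chains, at 48.4% to 50.4%, are near that median. Replicate 1 of unirradiated Bub1KO was the lowest of the 12 libraries for Tyk2 and the highest for Jak1 and Jak2.

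With each library's trend with GC content removed, the 4 chains higher in irradiated Bub1KO than in irradiated VC kept their calls. The irradiation call of Tyk2 in Bub1KO ended (log2 change 0.10, adjusted p = 0.286 by limma) and so did that of Socs3 (0.31, adjusted p = 0.194). In VC, Tyk2 kept its call. Its log2 change in VC, 0.59 in the main fit, ran from 0.28 to 0.65 over all 16 alternatives. With GC trends removed, Socs3 fell in VC by 0.73 on the log2 scale (adjusted p = 0.00528 by limma). Tyk2 also overlaps 1700084C06Rik, an antisense gene with at most 6.35 normalized counts, and whether the counting used strand is not described.

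**Figure D5:**
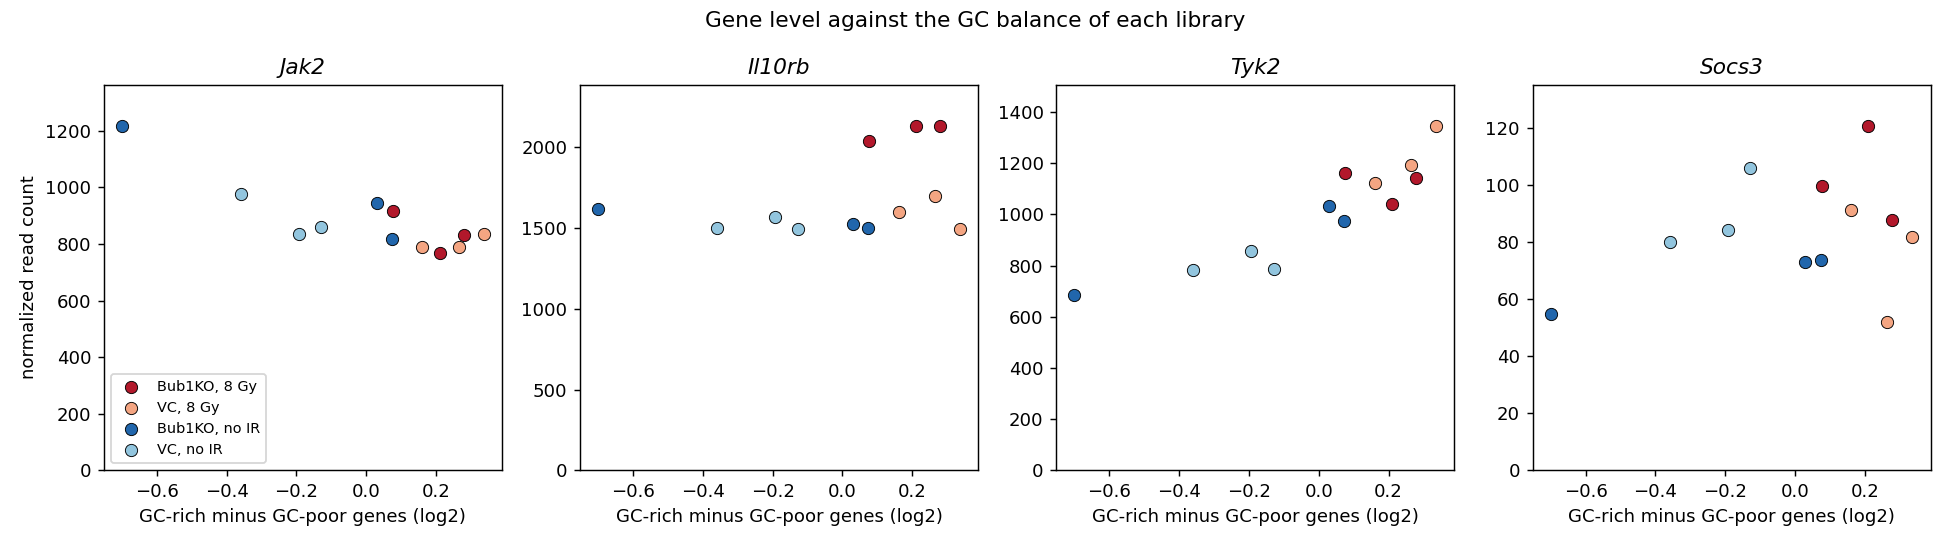
Normalized read counts of Jak2, Il10rb, Tyk2 and Socs3 (y axes from 0) against the GC balance of each of the 12 libraries (x axis, log2), coloured by group. Tyk2 is lowest and Jak2 highest in the library at -0.70, replicate 1 of unirradiated Bub1KO. Il10rb is at 2040 to 2131 in the 3 irradiated Bub1KO libraries, at GC balances of 0.0763 to 0.279, and at most at 1698 in the other libraries.

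Other genes of the pathway were read from lists. The shares of all 14721 tested genes that passed the same threshold are the background of each list. After irradiation 30.7% passed between the genotypes, with 2104 genes higher and 2408 lower in Bub1KO than in VC. Without irradiation 4.01% passed between the genotypes. With irradiation 49.4% passed in Bub1KO (3746 rose, 3523 fell) and 53.4% in VC (4065 rose, 3796 fell). Whether any list departs from these shares was not tested. Of 8 tested JAK and STAT pathway factors outside the set, 4 were higher in irradiated Bub1KO than in irradiated VC and none was lower. The largest was Irf9, the DNA-binding subunit of the complex formed after type I signals, at 554 ± 93.5 normalized counts in Bub1KO against 262 ± 9.66 in VC (SD, n = 3 each), a log2 change of 1.06. The largest log2 change among the receptor chains was 0.42. Without irradiation none of the 8 passed by limma, edgeR or DESeq2, and none had an unadjusted p under 0.05. Irf9 was at a log2 change of 0.36 there (adjusted p = 0.283 by limma) and Stat2 at 0.26 (adjusted p = 0.378), both without overlap between the libraries. With irradiation 5 rose in Bub1KO and 4 in VC and none fell, and the largest changes were those of Jak3, the kinase of the common gamma chain (2.45 in Bub1KO, 2.48 in VC), and Irf9 (2.04 in Bub1KO, 1.33 in VC). Jak3 was low without irradiation, with 38 reads in all over the Bub1KO libraries and 25 over the VC libraries.

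Of 10 tested phosphatases and other brakes, 2 were higher and 2 lower in irradiated Bub1KO than in irradiated VC. Usp18, which displaces Jak1 from Ifnar2 and is itself an interferon-stimulated gene, was at 106 ± 27.4 normalized counts in Bub1KO against 32.5 ± 8.40 in VC (SD, n = 3 each), a log2 change of 1.68. Ptpn6, the phosphatase SHP-1, was at 1039 ± 36.2 in Bub1KO against 787 ± 43.7 in VC, a log2 change of 0.40. Without irradiation none of the 10 passed by limma, and 2 had an unadjusted p under 0.05. Ptpn6 was at a log2 change of 0.47 there (adjusted p = 0.0596 by limma) and was called by edgeR and DESeq2, and Usp18 was at 1.49 (adjusted p = 0.226 by limma). Usp18 was near the floor without irradiation, with 20 reads in all over the Bub1KO libraries and 6 over the VC libraries. With irradiation 2 rose and 4 fell in Bub1KO, led by Usp18 (3.87) and Pias2 (-0.47), and 3 rose and 3 fell in VC, led by Usp18 (3.67) and Ptpn6 (0.50).

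The other SOCS family genes did not move as a block. After irradiation 1 of 6 was higher in Bub1KO than in VC, Socs2 (0.54, a call that ended with no filter at an adjusted p of 0.108), and 2 were lower, led by Socs4 (-0.34, a call that ended in 6 of 16 alternatives). Without irradiation none of the 6 passed by limma, while edgeR and DESeq2 each called 2 as lower, Socs5 and Socs7. By limma Socs5 was at a log2 change of -0.33 (adjusted p = 0.151) and Socs7 at -0.24 (adjusted p = 0.166), both without overlap between the libraries. Cish, a SOCS gene induced through Stat5, rose with irradiation by 1.05 in Bub1KO and 0.97 in VC. A single gene fell in each genotype, Socs6 in Bub1KO (-0.31) and Socs7 in VC (-0.29). For the 5 partners that turn a SOCS box into a ubiquitin ligase, 1 was higher and 2 were lower in irradiated Bub1KO than in irradiated VC. Elob, the elongin B subunit, was at 1872 ± 207 normalized counts in Bub1KO against 3580 ± 515 in VC (SD, n = 3 each), a log2 change of -0.93 that did not pass with DESeq2 or with all 12 libraries in the fit (adjusted p up to 0.0548). Rnf7, a RING subunit, was the 1 that was higher (0.21, a call that ended in 6 of 16 alternatives). With irradiation 4 of the 5 fell in Bub1KO, led by Rbx1 (-0.32) and Eloc (-0.31), and in VC 3 fell, led among them by Rbx1 (-0.41), and Elob rose (1.19). Without irradiation none of the 5 passed by limma, edgeR or DESeq2, and none had an unadjusted p under 0.05.

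Of the other chains of the same receptor family only Il20rb was abundant enough to test, 1 of 5. Chains that pair with Il10rb were near the floor. Ifnlr1, of the interferon lambda receptor, had 15 reads in all over irradiated Bub1KO libraries and 13 over irradiated VC. It had 8 over unirradiated Bub1KO and 4 over unirradiated VC libraries. Il10ra had 0 reads in every group. Il22ra1 had 2 reads in all over irradiated VC libraries, 3 over unirradiated VC and 0 in Bub1KO. Il20rb passed between the genotypes in neither state and fell with irradiation in VC by 0.36 on the log2 scale (adjusted p = 0.0495 by limma), a call that ended in 8 of 16 alternatives. The 4 tested factors that turn over the type I receptor did not pass between the genotypes in either state, and 1 fell with irradiation in Bub1KO, Csnk1a1 (-0.30).

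Because 4 of the chains are neighbours, the other 7 tested protein-coding genes within 200 kb of the stretch from Ifnar2 to Ifngr2 were counted beside them. After irradiation 2 were higher in Bub1KO than in VC, Dnajc28 (0.42, a call that ended in 6 of 16 alternatives) and Cryzl1 (0.23, a call that ended without replicate 1 of irradiated VC at an adjusted p of 0.053), and 1 was lower. Without irradiation none passed by limma, 3 had an unadjusted p under 0.05, and edgeR and DESeq2 each called 2 higher and 1 lower. Dnajc28 was at 92.2 ± 7.90 normalized counts in unirradiated Bub1KO against 58.9 ± 5.62 in unirradiated VC, a log2 change of 0.64 (adjusted p = 0.0686 by limma). Cryzl1 was at 1553 ± 105 in unirradiated Bub1KO against 1187.5 ± 64.1 in unirradiated VC (SD, n = 3 each), a log2 change of 0.39 (adjusted p = 0.0581), and Gart, the gene that was lower, was at -0.23 (adjusted p = 0.178). None of the 3 overlapped between the genotypes. With irradiation 1 rose and 5 fell in Bub1KO, and 1 rose and 3 fell in VC. Donson, a replication fork protein, fell by 1.19 in Bub1KO and by 1.06 in VC on the log2 scale, while Dnajc28 rose by 0.52 in Bub1KO and by 0.74 in VC. The median log2 change with irradiation of the 7 neighbours was -0.22 in Bub1KO and -0.18 in VC.

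Genes with the most similar pattern were ranked by the root mean square difference of centred log2 values over the 12 libraries, among genes averaging at least 50 normalized counts. Closest were Rnf145 (0.0638) and Igbp1 (0.0707) to Ifnar2, Pdhb (0.0498) and Aplp2 (0.0533) to Ifngr1, and Galnt11 (0.0527) and Dcaf5 (0.0534) to Ifngr2. Il10rb was closest to Ndrg3 (0.0572) and Afg1l (0.0627), and Tyk2 to Alas1 (0.073) and Zfp647 (0.0743). For Socs3 the nearest, Eno1b at 0.188 and Rpl34-ps1 at 0.213, were much less alike. None of these 12 genes is on the list of members or on chromosome 16.

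Markers of other cells were read beside the set. Of 9 leukocyte markers, Adgre1, Tyrobp and Cd3e had 0 reads in all 12 libraries, Ptprc had 3 reads in all, and 2 were tested. The summed level of the 9 was 271 to 288 normalized counts in irradiated Bub1KO, 172 to 196 in irradiated VC, 28.8 to 31.5 in unirradiated Bub1KO and 29.0 to 32.3 in unirradiated VC libraries, nearly all of it from Cd68 and Lyz2. Both rose with irradiation, Cd68 by 3.41 in Bub1KO and 2.17 in VC, and Lyz2 by 2.54 in Bub1KO and 3.60 in VC. Lyz2 was low without irradiation, with 31 reads in all over the Bub1KO libraries and 13 over the VC libraries. After irradiation Cd68 was higher in Bub1KO than in VC (log2 change 0.94), and Lyz2 was at -0.15 (adjusted p = 0.520 by limma). The 8 fibroblast and endothelial markers summed to 75.3 to 82.9 in irradiated Bub1KO, 88.2 to 95.3 in irradiated VC, 86.4 to 118 in unirradiated Bub1KO and 110 to 161 in unirradiated VC libraries. The 2 of these that were tested went opposite ways with irradiation: Pdgfra fell (-1.11 in Bub1KO, -1.41 in VC) and Col1a1 rose (1.78 in Bub1KO, 1.88 in VC). Neither passed between the genotypes in either state. The 6 epithelial markers summed to 122 to 133 in irradiated Bub1KO, 77.2 to 102 in irradiated VC, 74.8 to 96.6 in unirradiated Bub1KO and 57.2 to 78.7 in unirradiated VC libraries. Of the 6 only Cdh1 was tested, and it made up nearly all of the sum. Cdh1 was higher in irradiated Bub1KO than in irradiated VC (0.51, adjusted p = 0.0165 by limma). Without irradiation it did not pass (0.42, adjusted p = 0.258 by limma). With irradiation Cdh1 rose by 0.52 in Bub1KO and by 0.43 in VC. The part of these markers of other cells in the differences of the receptor chains was not tested.

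The authors' deposited table for irradiated cells gives its log2 fold change as VC over Bub1KO, so that a negative value means more in Bub1KO. In the authors' deposited table Il10rb is at -0.39 (adjusted p = 4.34e-06), Ifnar2 at -0.42 (adjusted p = 0.000752), Ifngr2 at -0.24 (adjusted p = 0.00306) and Ifngr1 at -0.24 (adjusted p = 0.0888). Of the 10 genes, 3 are under 0.05 in the authors' deposited table for irradiated cells, where 18.1% of genes are, and none in the authors' deposited table for unirradiated cells, where 13.1% are.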

How the data were processed

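Per the labels' protocols, cultured B16F10 cells gave total RNA by TRIzol, and a stranded kit with removal of ribosomal RNA gave the libraries. Per the submitters' processing notes, the tools were STAR, HTSeq, SAMtools, Trim Galore and cutadapt and the build was GRCm38.p6 (mm10). Annotation and strand setting are not described there. The authors deposited, for irradiated and for unirradiated cells, a signal per gene and library, which is the read count divided by 1 size factor per library (0.775 to 1.41). Per the file headers the deposited tables also hold p-values, a test score and a log2 fold change with VC on top of Bub1KO.

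The deposited values share 1 normalization, since both tables give the same mean over the 12 libraries. Dividing by the value of 1 read gave whole reads for 100% of values in every library (tolerance 0.01). The test was limma-trend (limma 3.58.1, R 4.3.3) on log2(value + 1) for 14721 genes; because the values are normalized, edgeR 4.0.16 and DESeq2 1.42.0 on the recovered reads are alternatives. Bub1KO was compared with VC on the 6 libraries of each state, and irradiation effects and the interaction were fitted on all 12. Fold changes on this scale understate the change of low genes. Chain ratios were tested with an exact two-sided permutation test (SciPy 1.17.1). The tests were checked on simulated data.

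The members and lists were chosen with earlier results of these data known. All members are described; from each pathway list the text names the 2 genes with the largest absolute log2 change among those past the threshold, and for likeness the 2 nearest genes of each member called at least once. A gene that this rule names is not reported here. Groups came from the genotype and treatment labels. Gene positions and exon lengths are from GENCODE M21, which matched 55240 of 55421 identifiers, and transcript GC content was known for 14707 tested genes. Alternatives were other pseudocounts (0.5 and 5), no filter, TMM scaling, other sets of libraries in the fit, removal of GC trends, a replicate block and leaving out each library. Those for the named pathway genes were added after the data were seen.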

Additional observations from a re-analysis of the deposited data

Results flagged for a closer look

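Ifnar2 was flagged by the order of its libraries in the genotypes. Every irradiated Bub1KO library was above every unirradiated Bub1KO library, which 29.1% of all tested genes also showed. Every irradiated VC library was below every unirradiated VC library, which 31.8% of all tested genes also showed. The share of genes that showed both is not given here. Neither change passed by limma (0.20 in Bub1KO, adjusted p = 0.0724, and -0.18 in VC, adjusted p = 0.102). The difference between them was 0.38 on the log2 scale, and the test of that difference by limma had an adjusted p of 0.224, so it did not pass.

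Lifr, a receptor chain that pairs with gp130, responded differently to irradiation in the genotypes by the test of the difference itself, with an interaction of 1.26 on the log2 scale and an adjusted p of 0.0446 by limma. Its level was 59.9 ± 8.57 normalized counts in irradiated Bub1KO, 30.2 ± 1.77 in irradiated VC, 41.0 ± 4.77 in unirradiated Bub1KO and 51.1 ± 8.55 in unirradiated VC cells (SD, n = 3 each). The call ended in 12 of 21 alternatives, with adjusted p-values up to 0.14, and among these were leaving out any 1 irradiated library, replicate 2 or 3 of unirradiated Bub1KO, and replicate 2 or 3 of unirradiated VC.

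Cd68, counted among the leukocyte markers, had an interaction of 1.24 on the log2 scale with an adjusted p of 0.0172 by limma. It was at 216 ± 7.54 normalized counts in irradiated Bub1KO, 113 ± 15.9 in irradiated VC, 19.4 ± 1.45 in unirradiated Bub1KO and 24.1 ± 2.08 in unirradiated VC cells (SD, n = 3 each). Lyz2, the only other leukocyte marker tested, had an interaction of -1.06 with an adjusted p of 0.159 by limma.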

How the results depend on the processing

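Over the 9 tested genes and 5 comparisons, 765 alternative values were computed, of which 724 stayed on the same side of the threshold (19 of them, all uncalled, with the sign changed), 16 passed newly and 25 lost a call, in 11 of the 45 pairs of gene and comparison. No called pair changed sign in any alternative, and 10 uncalled pairs did. Depth limits Socs1, with at most 14 reads, and 3 libraries a group cannot take a permutation test below 0.1.

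In irradiated Bub1KO against VC, 4512 of all genes were called, with 2439 by edgeR, 2579 by DESeq2, 2062 with no filter and 2105 with all 12 libraries in the fit. Without irradiation 591 were called, with 1744 by edgeR, 1868 by DESeq2, 329 with no filter, 1769 with all 12 libraries and 1691 with GC trends removed, and 172 to 2736 when 1 library was left out. With 1 library left out, 0 to 1 members were called there. Of the members, 4 were called with irradiation in Bub1KO, 2 with no filter, 2 with GC trends removed and 2 to 5 with 1 library left out. The interaction had 81 genes and 0 members, with 283 genes and 1 member by DESeq2, 418 genes and 1 member with GC trends removed, and 33 to 1447 genes and 0 to 2 members with 1 library left out. The highest counts, 2736 and 1447, came without replicate 1 of unirradiated Bub1KO. Without irradiation, leaving out any other library gave 172 to 301. In the interaction, counts of 33 to 47 came without replicate 1, 2 or 3 of irradiated Bub1KO, replicate 1 or 2 of irradiated VC, or replicate 2 of unirradiated VC, and 52 without its replicate 3. The 2 members called with irradiation in Bub1KO came without replicate 3 of irradiated or replicate 1 of unirradiated Bub1KO. The cause of these changes was not tested.

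Over genes, samples with the same replicate number showed little common deviation (correlations of -0.193 to 0.0549). In GC balance, irradiated replicates 1, 2 and 3 kept the same order in both genotypes. They were at 0.210, 0.279 and 0.0763 in Bub1KO and at 0.265, 0.336 and 0.161 in VC. The unirradiated replicates did not keep 1 order. With 3 libraries a group, whether the numbers pair the samples cannot be told. With a replicate block 312 genes were called without irradiation and 47 in the interaction, and Ifngr1 lost its call after irradiation (adjusted p = 0.0505). With the block and GC trends removed, 1292 genes were called without irradiation, 278 in the interaction, and 2 members with irradiation in Bub1KO.

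Leaving out 1 library, the Bub1KO minus VC difference in the Ifnar1 to Ifnar2 ratio without irradiation was -0.0209 to 0.130, that in the Ifngr1 to Ifngr2 ratio -0.0581 to 0.0402 after irradiation and -0.166 to 0.0190 without it, so each changed sign.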

Other observations

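Socs3 is best known as the brake on receptors that signal through gp130, so the cytokines and receptors of that family were read as well. Of 10 listed genes 6 were tested. After irradiation 1 was higher in Bub1KO than in VC, Lifr (log2 change 0.96), and 3 were lower, led by Lif, the cytokine that binds Lifr (-0.99). Lif was at 47.0 ± 5.19 normalized counts in irradiated Bub1KO against 94.2 ± 5.83 in irradiated VC cells, and at 7.83 ± 3.15 in unirradiated Bub1KO against 21.8 ± 4.66 in unirradiated VC cells (SD, n = 3 each). Without irradiation none of the 6 passed between the genotypes by limma, and edgeR and DESeq2 each called 3 as lower in Bub1KO, Lif, Il6ra and Il6st. By limma Lif was at a log2 change of -1.41 there (adjusted p = 0.0548). With irradiation 3 rose and 1 fell in Bub1KO, and 3 rose and 2 fell in VC. Lif rose by 2.50 in Bub1KO and by 2.08 in VC, and Osmr, the oncostatin M receptor chain, by 0.85 in Bub1KO and by 1.25 in VC on the log2 scale.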
